A study of Homo sapiens with 6 samples.

Results

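The 10 genes described here encode the retinoblastoma pocket proteins RB1, RBL1 (p107) and RBL2 (p130) and the E2F transcription factors E2F1, E2F2, E2F3, E2F4, E2F5, E2F7 and E2F8. They were taken by gene symbol, and all 10 were present among the 17170 genes of the deposited expression table. Polyadenylated RNA was sequenced from NCI-H69, a long-established line of small cell lung cancer kept in RPMI-1640 with serum. In 3 samples labelled negative control the cells had received a non-targeting guide RNA, and in the other 3 a stable CRISPR/Cas9 knockout had been aimed at the coding sequence for SCRMP in MIR7-3HG. The column names that the labels give for the knockout samples were found for 0 of them, so the values below are those of the 3 control libraries and no test between genotypes was made. The labels call these samples biological replicates without saying how far the cultures were separate, so each SD measures the spread between 3 libraries.

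Pocket proteins hold E2F factors at promoters of cell cycle genes and recruit repressors of transcription. Phosphorylation by cyclin-dependent kinases releases the E2Fs, and transcription of S phase genes follows. E2F1, E2F2 and E2F3 are regarded as activators, E2F4 and E2F5 as repressors that act with pocket proteins, and E2F7 and E2F8 as atypical repressors that bind DNA without a pocket protein or a DP partner. RB1 is commonly lost in small cell lung cancer, by mutations that can remove the protein with or without the transcript.

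The libraries held 20941185 to 22477571 estimated reads. The label of the cells was compared with marker genes. Of 13 measured neuroendocrine markers 3 reached 1 TPM (transcript abundance per length, scaled to a fixed total in each library) in all 3 libraries, NCAM1, ENO2 and SYT1, and their list median was 0.540 TPM ± 0.234 (SD, n = 3). INSM1, CHGA and DLL3, which define neuroendocrine small cell lung cancer, stood at 0.650, 0.080 and 0.240 TPM. Of 15 mesenchymal and fibroblast markers 13 reached that level, with a median of 48.6 TPM ± 4.06 and VIM at 4542 TPM. Epithelial markers had 3 of 9 measured genes at that level, leukocyte markers 2 of 6 and endothelial markers 0 of 4. The summed level of the neuroendocrine list was 77.1 to 83.0 TPM per library and that of the mesenchymal list 6480 to 6501 TPM, and the part of either in the levels below was not tested. The libraries labelled NCI-H69 therefore lacked most defining markers of the labelled cell type.

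All 10 genes were detected, that is, reached 1 TPM or more in each of the 3 libraries, as did 66.5% of all genes in the table. A mean of 10 TPM or more was reached by 6 of the 10 (RB1, RBL2, E2F1, E2F3, E2F4 and E2F5), against 44.1% of all genes. Their means spanned 2.02 to 40.4 TPM, and their median was 13.5 TPM ± 1.98, where the median gene of the table had 6.83 TPM ± 0.461. TPM divides reads by transcript length, so genes are compared on this scale. The 10 genes fell into 2 bands. E2F4, E2F5, RB1, E2F1, RBL2 and E2F3 lay above the median gene and RBL1, E2F7, E2F8 and E2F2 below it, with a 3.73-fold step in mean TPM between E2F3 and RBL1.

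**Figure D1:**
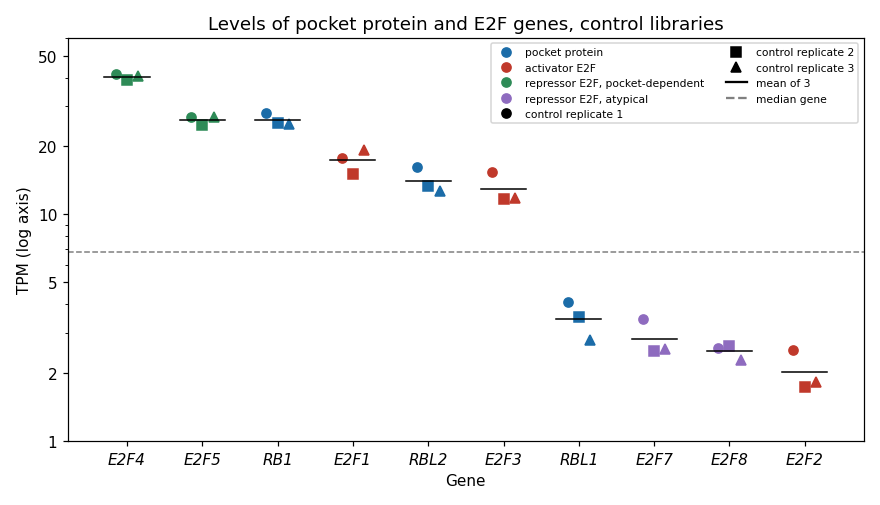
TPM (log axis) of each gene in the 3 control libraries, ordered by mean; symbols mark the replicate, colours the class, short lines the mean and the dashed line the median gene of the table (6.83 TPM). E2F4 sits highest at 39.2 to 41.4 TPM, and a gap separates E2F3 (11.6 to 15.3 TPM) from RBL1 (2.80 to 4.09 TPM).

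Within the order, E2F4 lay above E2F5 with no overlap between their libraries, RB1 above E2F1, and E2F3 above RBL1. The other 6 neighbouring pairs overlapped in range. E2F5 and RB1 differed 1.00-fold in mean and changed places between libraries. E2F1 lay above RBL2, RBL2 above E2F3, RBL1 above E2F7 and E2F8 above E2F2 in 3 of 3 libraries, although their ranges overlapped. E2F7 lay above E2F8 in 2 of the 3.

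RB1, the founding tumour suppressor of the family, was the highest of the pocket proteins. It had 27.9, 25.3 and 25.0 TPM in control replicates 1, 2 and 3, a mean of 26.0 TPM ± 1.61, from 1478 to 1497 estimated reads (chromosome 13, 48303751 to 48481890, GRCh38.p14). The 3 libraries were close to each other, and RB1 was ranked 4577 of 17170 genes. RBL2, which with E2F4 forms the repressor complex of resting cells, had 16.2, 13.3 and 12.7 TPM, a mean of 14.1 TPM ± 1.89 (chromosome 16, 53434471 to 53491648). RBL1, the pocket protein found mainly in cycling cells and itself known as an E2F target, had 4.09, 3.51 and 2.80 TPM, a mean of 3.47 TPM ± 0.646, from 197 to 263 reads (chromosome 20, 36996349 to 37095997). The ranges of the 3 pocket protein genes did not overlap.

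Within each library RB1 exceeded RBL1 by 6.82-fold, 7.20-fold and 8.91-fold. The log2 ratio of RBL1 to RB1 was -2.92 ± 0.20 (SD, n = 3). RB1 exceeded RBL2 by 1.72-fold, 1.90-fold and 1.97-fold, a log2 ratio of RBL2 to RB1 of -0.89 ± 0.10. RBL2 in turn exceeded RBL1 by 4.10-fold ± 0.389. Each of these ratios kept its direction in 3 of 3 libraries and was several times its SD. An exact two-sided sign-flip permutation test gave p = 0.25 for each, which is the smallest p that 3 libraries allow. Of the summed pocket protein TPM, RB1 held 59.9% ± 1.93, RBL2 32.2% ± 1.27 and RBL1 7.92% ± 0.864. RB1 was also above the sum of RBL1 and RBL2 in every library, the sum standing at 0.672 ± 0.0543 of RB1. A transcript level does not show whether RB1 protein was made.

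The neighbourhood of RB1 on chromosome 13 was examined from the 5 nearest measured genes on each side. Of these 10 genes 8 were detected, against 66.5% of all genes in the table. Their median was 17.9 TPM, where the median gene of the table had 6.83 TPM. Toward lower coordinates ITM2B had 26.6 TPM ± 1.75, the Mediator subunit gene MED4 29.7 TPM ± 0.923 and SUCLA2, a subunit of succinyl-CoA synthetase, 48.1 TPM ± 2.89. RB1 lay close to ITM2B and MED4. Toward higher coordinates RCBTB2 had 10.3 TPM ± 1.40, FNDC3A 25.5 TPM ± 4.42, CDADC1 9.64 TPM ± 1.66 and CAB39L 10.01 TPM ± 0.848. HTR2A, a serotonin receptor gene, was listed at 0 in all 3 libraries, and CYSLTR2, a leukotriene receptor gene, had under 1 estimated read in each. LPAR6, a receptor gene that lies inside RB1 on the opposite strand and shares 0 exon bases with it, had 0.140 TPM ± 0.0436 from 2 to 3.41 reads.

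Among the activators E2F1 was highest and E2F2 lowest. E2F1, which is known for driving S phase entry and also apoptosis, had 17.7, 14.99 and 19.3 TPM in control replicates 1 to 3, a mean of 17.3 TPM ± 2.15 (chromosome 20, 33675477 to 33686385). It was highest in replicate 3 and lowest in replicate 2. E2F3 had 15.3, 11.6 and 11.8 TPM, a mean of 12.9 TPM ± 2.09, and was highest in replicate 1 (chromosome 6, 20401879 to 20493714). The ranges of E2F1 and E2F3 overlapped slightly, and E2F1 was higher in 3 of 3 libraries, by 1.15-fold, 1.29-fold and 1.63-fold. E2F3 gives rise to E2F3a and E2F3b from separate starts, and the table holds their sum. E2F2, the third activator, had 2.52, 1.73 and 1.82 TPM, a mean of 2.02 TPM ± 0.432 from 91.3 to 111.7 reads (chromosome 1, 23505212 to 23531233). It was the lowest of the 10 genes by mean and ranked 10871 in the table.

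The repressors that act with pocket proteins were the most abundant E2F genes. E2F4 had 41.4, 39.2 and 40.6 TPM, a mean of 40.4 TPM ± 1.13 (chromosome 16, 67192155 to 67198918). Its coefficient of variation (CV, the SD as a percent of the mean), 2.79%, was no larger than the counting error of its reads, 3.08%. E2F5, the close relative that binds mainly RBL2, had 26.9, 24.6 and 26.8 TPM, a mean of 26.1 TPM ± 1.29 (chromosome 8, 85177154 to 85214518). The atypical repressors, themselves known as E2F targets in S phase, were far lower. E2F7 had 3.44, 2.48 and 2.55 TPM, a mean of 2.82 TPM ± 0.535 (chromosome 12, 77021251 to 77065569). E2F8 had 2.56, 2.61 and 2.28 TPM, a mean of 2.48 TPM ± 0.178 (chromosome 11, 19224063 to 19241655). Their libraries overlapped with each other and with E2F2, and the E2F8 libraries lay below every RBL1 library.

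Summed over E2F1, E2F2 and E2F3, the activators had 35.5, 28.3 and 32.9 TPM. The 4 repressors E2F4, E2F5, E2F7 and E2F8 had 74.3, 68.9 and 72.3 TPM. Repressors exceeded activators by 2.09-fold, 2.43-fold and 2.20-fold, and the log2 ratio of activators to repressors was -1.16 ± 0.11 (SD, n = 3). The direction held in 3 of 3 libraries, and the exact two-sided sign-flip permutation test gave p = 0.25, again the smallest it can give. This excess came from E2F4 and E2F5, which together held 64.0% ± 1.71 of the TPM of the 7 E2F genes and stood 2.08-fold ± 0.165 above the activators. E2F7 and E2F8 held 5.10% ± 0.451 and stood below the activators, by 6.10-fold ± 0.637. E2F4 alone held 38.9% ± 1.31, E2F5 25.1% ± 0.522, E2F1 16.6% ± 1.52, E2F3 12.4% ± 1.42 and E2F2 1.94% ± 0.313. The size of the ratio depends on dividing by length. With estimated reads, which long transcripts gather more of, the log2 ratio was -0.44, and RB1 rather than E2F4 led the 10 genes, with 1485 against 1053 reads on average.

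Promoter sequences were then searched for the E2F consensus, written as the words TTTCCCGC, TTTCGCGC, TTTGCCGC and TTTGGCGC on both strands. The windows run from 250 bases before to 50 bases after an annotated start and come from RefSeq (GRCh38.p14). Of the 10 genes 7 had a window at the annotated start of the gene, and 4 of these held a match: the 3 activators E2F1, E2F2 and E2F3, and RBL1. E2F4, E2F7 and RBL2 held none of these words, nor did a second window of E2F3, 1735 bases further along, or a second one of RBL2. A match was found in 3.31% of all 35116 promoter windows, and in 16 of 26 G1/S target genes with a window against 6.95% of all detected genes with one. The 4 windows with a match are shown because the activators and RBL1 differ by it from the 3 other genes searched at their start, and capitals mark the matches. They lie at chr20:33686336-33686635 (minus strand, E2F1), chr1:23531184-23531483 (minus, E2F2), chr6:20401629-20401928 (plus, E2F3) and chr20:37095948-37096247 (minus, RBL1), each written 5′ to 3′ along the gene.

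E2F1: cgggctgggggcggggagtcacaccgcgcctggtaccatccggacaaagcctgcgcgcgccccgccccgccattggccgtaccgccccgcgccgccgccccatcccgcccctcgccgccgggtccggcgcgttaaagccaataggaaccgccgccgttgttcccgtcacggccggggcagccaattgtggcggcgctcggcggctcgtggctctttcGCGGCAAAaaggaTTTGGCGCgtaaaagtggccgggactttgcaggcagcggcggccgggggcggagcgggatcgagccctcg

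E2F2: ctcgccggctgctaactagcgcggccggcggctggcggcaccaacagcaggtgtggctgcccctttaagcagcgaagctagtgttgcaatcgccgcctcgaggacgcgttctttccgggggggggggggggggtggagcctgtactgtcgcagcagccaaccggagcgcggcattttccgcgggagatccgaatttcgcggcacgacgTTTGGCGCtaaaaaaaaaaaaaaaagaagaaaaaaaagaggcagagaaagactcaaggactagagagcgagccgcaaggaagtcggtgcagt

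E2F3: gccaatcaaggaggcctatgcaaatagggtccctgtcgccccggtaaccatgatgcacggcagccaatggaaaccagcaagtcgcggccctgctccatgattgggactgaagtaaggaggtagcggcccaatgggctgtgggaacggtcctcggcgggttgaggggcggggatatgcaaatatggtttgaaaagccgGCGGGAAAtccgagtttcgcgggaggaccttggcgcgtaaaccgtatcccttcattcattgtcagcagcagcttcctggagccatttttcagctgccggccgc

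RBL1: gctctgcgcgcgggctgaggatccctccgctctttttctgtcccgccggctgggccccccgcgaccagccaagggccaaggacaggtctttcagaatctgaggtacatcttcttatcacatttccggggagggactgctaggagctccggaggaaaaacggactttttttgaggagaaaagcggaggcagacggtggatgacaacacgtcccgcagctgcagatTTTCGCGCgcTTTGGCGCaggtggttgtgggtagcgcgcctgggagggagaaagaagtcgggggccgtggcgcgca

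E2F1 and RBL1 each held 2 matches, E2F2 and E2F3 each 1. The matches began 33 and 20 bases before the start in E2F1, 42 in E2F2, 53 in E2F3 and 26 and 16 in RBL1. All 6 thus lay in the last stretch before transcription begins. The levels did not follow the matches: the genes that held one ranged from 2.02 TPM (E2F2) to 17.3 TPM (E2F1), and the genes without one from 2.82 TPM (E2F7) to 40.4 TPM (E2F4). A match describes the sequence and does not show that a factor bound there.

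The libraries differed among themselves, and the members shared part of that pattern. Of the 10 genes 8 were highest in control replicate 1, against 57.7% of all detected genes, and E2F1 (replicate 3) and E2F8 (replicate 2) were the exceptions. Of the 6 genes with a mean of 10 TPM or more it was 5, against 54.6% of all genes at that level. The medians over all genes shifted the same way, though not every gene did. The median level of the table was higher in replicate 1 than in replicate 3 by 0.19 on the log2 TPM scale, and the median of the single genes' differences was 0.12. From replicate 3 to replicate 1 the log2 difference was 0.55 for RBL1, 0.47 for E2F2, 0.43 for E2F7, 0.38 for E2F3, 0.35 for RBL2 and 0.16 for RB1, and -0.13 for E2F1, 0.03 for E2F4 and 0.01 for E2F5. RBL1, E2F2, E2F7, E2F3 and RBL2 lay above both of these shifts and E2F1, E2F4 and E2F5 below both. RB1 and E2F8 (0.17) lay between them, so their direction relative to other genes depends on which shift is taken. Among genes with a mean of 10 TPM or more, which include RB1, the median difference was 0.075, below that of RB1. Transcript length moved with this pattern. Among genes of 10 TPM or more, those in the upper tertile of reads per TPM, which rises with length, had a median difference of 0.19, and those in the lower tertile -0.01. RB1, RBL1, RBL2, E2F2, E2F3, E2F7 and E2F8 lay at or above the lower bound of that upper tertile (42.4 reads per TPM), and 6 of these 7 were highest in replicate 1. The share was 76.7% of all genes in that tertile, which holds only genes of 10 TPM or more. RBL1, E2F2, E2F7 and E2F8 have lower means and are not among them. E2F4 and E2F5 had the fewest reads per TPM of the 10, 26.1 and 21.1, and the lowest coefficients of variation. The part of length in the spread of single genes was not tested.

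**Figure D2:**
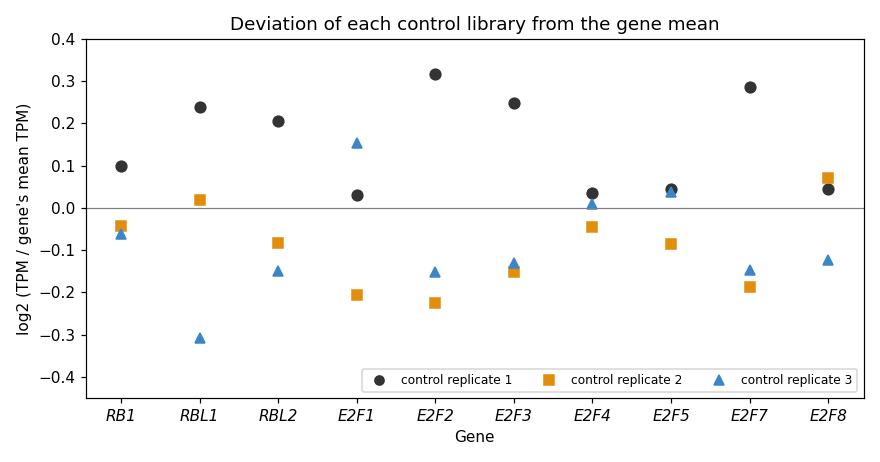
Log2 of TPM over the gene's mean TPM for each gene in the 3 control libraries (symbols and colours mark the replicate). Replicate 1 is the highest for 8 of 10 genes, while E2F4 and E2F5 lie between -0.08 and 0.04.

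The CV of the 10 genes ran from 2.79% for E2F4 to 21.4% for E2F2. It was above 11.2%, the median over all genes not listed at 0, in 6 of them. Of the 6 genes with a mean of 10 TPM or more, 4 were above 6.11%, the median of genes at that level. Counting error alone gives 2.60% for RB1 with its many reads and 10.01% for E2F2 with its few. In TPM, E2F4 and E2F8 varied by less than their counting error, and RB1, RBL1, RBL2, E2F1, E2F2, E2F3 and E2F7 by more than 2 times theirs. TPM also carries the scaling of each library, which counting error does not cover. Estimated reads were also set against equal shares of the library totals, as a chi-square divided by 2 degrees of freedom. Of these 7 genes E2F2 (2.24) and RB1 (3.17) were lowest by it and E2F3 highest (16.7). The median over genes with a mean of 10 TPM or more, which include RB1, was 4.05. As a ratio to counting error the CV was largest for E2F3 and RBL2, at 16.2% and 13.5% against 3.68% and 3.61% from counting.

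The partners of the E2Fs were at like levels. TFDP1 and TFDP2 encode the DP proteins with which E2F1 to E2F6 bind DNA as pairs. TFDP1 had 31.1, 26.6 and 30.3 TPM (mean 29.3 ± 2.39) and TFDP2 28.4, 28.3 and 27.9 TPM (mean 28.2 ± 0.231). E2F6, a repressor that acts with Polycomb proteins and binds no pocket protein, had 22.8, 21.3 and 19.7 TPM, a mean of 21.3 TPM ± 1.54. The sum over E2F1 to E2F6 was 120.0 TPM ± 6.59 and that of both DP genes 57.5 TPM ± 2.33, so DP transcripts stood at 0.480 ± 0.00888 of those of the E2Fs that need them. This ratio varied little between libraries, from 0.469 to 0.485.

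RBL1 and RBL2 also join the MuvB core in the DREAM complex, which silences cell cycle genes in resting cells, while the core passes to MYBL2 (B-MYB) and FOXM1 in cycling cells. All 5 core genes were detected: LIN37 at 66.3 TPM ± 4.92, LIN9 at 25.4 TPM ± 1.97, RBBP4 at 23.1 TPM ± 0.631, LIN52 at 18.7 TPM ± 1.33 and LIN54 at 16.3 TPM ± 1.89. MYBL2 had 110.8 TPM ± 2.00 and FOXM1 50.2 TPM ± 1.48, both above RBL2, RBL1 and E2F4 in every library. MYBL1, the relative of MYBL2, reached 1.14 TPM ± 0.187 and fell short of 1 TPM in replicate 2.

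Upstream of the pocket proteins stand the cyclin-dependent kinases that phosphorylate them and the inhibitors of these kinases. CDK4 had 198.0 TPM ± 6.29, far above its relative CDK6 (7.76 TPM ± 2.07), and CDK2 had 52.0 TPM ± 2.72. Of the D-type cyclins that activate CDK4, CCND2 had 60.1 TPM ± 5.19, CCND1 31.4 TPM ± 3.61 and CCND3 10.4 TPM ± 1.41, whereas the E-type cyclins CCNE1 and CCNE2 had 2.28 TPM ± 0.745 and 3.24 TPM ± 0.398. CCNA2, the S phase cyclin, had 17.1 TPM ± 1.90 and the phosphatase gene CDC25A 5.67 TPM ± 0.489. Of 7 inhibitor genes all were detected. CDKN2A, whose locus encodes the CDK4 inhibitor p16 and also ARF, had 412.2, 396.9 and 451.6 TPM, the highest level in the fixed pathway lists, and the table does not separate its products. CDKN1B followed with 127.9 TPM ± 5.32, then CDKN2C with 63.6 TPM ± 2.57, CDKN1A with 24.4 TPM ± 3.32, CDKN2B with 21.1 TPM ± 2.30, CDKN2D with 5.17 TPM ± 0.510 and CDKN1C with 2.35 TPM ± 0.115. High CDKN2A is a known companion of RB1 loss in tumours. Here RB1 transcript stood at 26.0 TPM, and whether RB1 function was lost in these cells was not tested.

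Downstream, targets of E2F were described from fixed lists. All 30 genes of a G1/S target list were detected, against 66.5% of all genes in the table. Their median was 39.5 TPM ± 1.52, and 26 of them had a mean of 10 TPM or more, against 44.1% of all genes. The list does not hold CCNE1, CCNE2 and CDC25A, which were placed with the kinases and cyclins. On the log2(TPM + 1) scale the list median lay 2.37 ± 0.04 above that of all genes, but 1.12 above that of genes of at least 1 TPM on average. The highest were the helicase subunit MCM7 (218.0 TPM ± 6.59), the thymidylate synthase TYMS (152.6 TPM ± 0.827) and the thymidine kinase TK1 (89.6 TPM ± 6.24). The lowest were the polymerase subunits POLE (4.39 TPM ± 0.441) and POLA1 (4.82 TPM ± 0.584) and the replication factor GINS1 (8.18 TPM ± 1.09). All 25 G2/M genes of the DREAM target list were detected as well. Their median was 39.3 TPM ± 4.16, which lay 2.36 ± 0.06 above that of all genes and 1.11 above that of genes of at least 1 TPM on average. UBE2C (213.6 TPM ± 7.77), CCNB1 (130.05 TPM ± 6.04) and CDK1 (126.8 TPM ± 4.47) led it, and the kinesins CENPE (3.05 TPM ± 0.687) and KIF23 (14.5 TPM ± 2.24) and the kinetochore protein CENPF (11.05 TPM ± 2.22) were lowest. RBL1, E2F2, E2F7 and E2F8, also known as E2F targets, lay below the lowest G1/S gene of the list by mean level. E2F1 and E2F3, which like RBL1 and E2F2 held a match to the E2F consensus, lay above that gene, at 17.3 and 12.9 TPM.

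**Figure D3:**
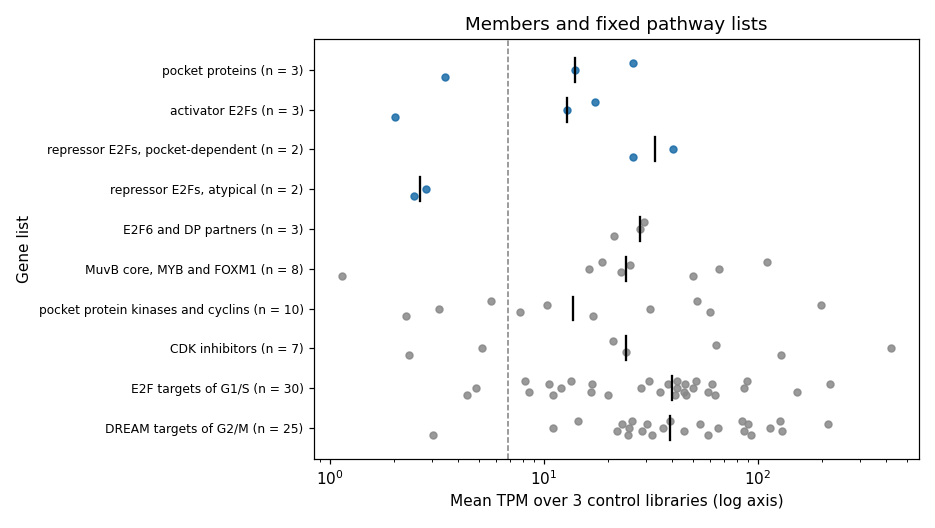
Mean TPM over 3 control libraries (log axis) of each gene in the member classes (blue) and in the fixed pathway lists (grey), with the list median as a black line and the median gene of the table as a dashed line. Both target lists have medians near 39 TPM, to the right of most of the 10 member genes, and CDKN2A is the point furthest right.

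Overlap with other genes limits some of these levels. In GENCODE release 29, E2F5 shares 969 exon bases with C8orf59, named RBIS in the table, and RBL2 shares 610 with AKTIP, both on the opposite strand. RBIS had 58.7 TPM ± 2.81, above E2F5, and AKTIP 12.2 TPM ± 1.73. The libraries keep the strand per the labels, but whether the counting used it is not stated in the labels or headers. If it did not, reads of the shared exons could belong to either gene. The repressor sum and the share of E2F5 in it carry this limit. E2F4, for which no overlapping gene was found, was alone above the activator sum in each library. Further exon overlaps, of 721 bases for RBL2, 211 for RBL1, 133 for E2F5 and 7 for E2F8, are with opposite-strand genes that have no value here. RB1 shares 0 exon bases with LPAR6 inside it. It also shares 0 with RCBTB2, which reaches into RB1 in GENCODE, whereas the RefSeq positions used above place it 7073 bases beyond the end of RB1.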

How the data were processed

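The authors deposited TPM, FPKM and estimated read counts per gene and library, per the file headers. TPM sum to the same total in each library over the 17170 genes. The scaling total of the deposited FPKM is not stated in the labels or headers. The deposited read counts are estimated counts, not whole reads throughout. Per the submitters' processing notes, HISAT2, StringTie, DESeq2 and GRCh38 were involved, without versions or roles. Of the labels' column names, the 3 control names were found and 0 knockout names. Another 12 columns of values, of 3 libraries, match no sample and were not used.

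Members and gene lists were chosen with earlier results of these data known. Named genes are all members, every gene of lists of up to 10 genes, otherwise the 3 highest and 3 lowest, and the 5 nearest measured genes on each side of RB1, of which 1 is not reported here and stays in their count and median. The cell type marker lists lie outside this rule, and the markers named were chosen after their values were seen. No gene of like pattern was sought, since 3 libraries of 1 group hold no pattern across conditions. Some listed markers have no value and enter no count. A further 2 lists, on corepressors and turnover, are in the closing section.

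Means and SDs are over 3 libraries. Ratios were formed within each library and tested by an exact sign-flip permutation. Counting error is the percent given by the square root of the mean reads, and covers counting only. The CV and its ratio to counting error were not checked on simulated data. Alternatives were FPKM, estimated reads, other minima and pseudocounts, other sums and left-out libraries. Positions are from RefSeq (GRCh38.p14), matched by gene number for 17105 genes. Scripts ran in Python 3.11.15 with numpy 2.4.6 and pandas 2.3.3, and figures were drawn in matplotlib 3.10.9.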

Additional observations from a re-analysis of the deposited data

How the results depend on the processing

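Of 36 alternative values for 6 results, 23 moved by less than the SD between libraries (for the count, by less than 1.5 times), 13 moved further and 0 changed direction. Estimated reads in place of TPM, an alternative chosen after seeing the data, gave log2 ratios of -2.69 for RBL1 to RB1 and -0.44 for activators to repressors, against -2.92 and -1.16, and list positions of 1.67 for G1/S and 2.08 for G2/M targets, against 2.37 and 2.36. Reads are not divided by length. Adding E2F6 to the repressors gave -1.54 and leaving out E2F7 and E2F8 -1.05. The G1/S and G2/M positions were 2.27 and 2.26 with FPKM, 2.51 and 2.50 with a pseudocount of 0.1, and 1.12 and 1.11 among genes of at least 1 TPM on average, which removes low genes from the reference. With a minimum of 5 TPM, 6 of the 10 members counted as detected. The share of all genes at that minimum is not given here, so this count cannot be set beside other genes. Without each library in turn, the log2 ratio of RBL1 to RB1 was -3.00 to -2.81, that of RBL2 to RB1 -0.95 to -0.85 and that of activators to repressors -1.21 to -1.10. The G1/S position was 2.35 to 2.38, the G2/M position 2.33 to 2.39, and 10 members were detected each time. No paired analysis was possible because knockout samples have no column here. Depth limits E2F2 and E2F8 most, at about 100 reads per library.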

Other observations

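Genes that act on pocket proteins and E2Fs from the side were described from 2 further lists. Of 10 corepressor genes all were detected, and their median was 21.4 TPM ± 1.70. The histone deacetylase genes HDAC2, HDAC1 and HDAC3 had 80.1 TPM ± 7.36, 62.9 TPM ± 2.20 and 61.8 TPM ± 3.60, and the histone chaperone RBBP7 64.8 TPM ± 3.52. SIN3A and SIN3B, scaffolds of deacetylase complexes, had 25.0 TPM ± 0.986 and 16.5 TPM ± 0.912. ARID4B and ARID4A had 17.7 TPM ± 2.64 and 9.52 TPM ± 1.09, the demethylase KDM5A 10.03 TPM ± 0.318 and the methyltransferase SUV39H1 5.20 TPM ± 0.167. All of these except SUV39H1 lay above RBL1, E2F2, E2F7 and E2F8 by more than 2 times in mean.

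All 6 genes for turnover of these proteins were detected too, and their median was 22.8 TPM ± 0.420. CDC20 and FZR1, which direct the anaphase-promoting complex, had 242.3 TPM ± 11.9 and 27.0 TPM ± 1.46. PSMD10, known as gankyrin and as an RB1 binder, had 55.4 TPM ± 5.42 and SKP2, a ubiquitin ligase subunit, 18.7 TPM ± 2.28. MDM2 had 6.89 TPM ± 1.32 and the cyclin F gene CCNF 4.12 TPM ± 0.361.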
